A study of Rattus norvegicus with 12 samples.

Results

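The enzymes that release arachidonic acid and turn it into prostaglandin E2 (PGE2), and receptors for PGE2, were followed in rat INS-1 cells, which are insulinoma-derived and answer glucose with insulin secretion. The 10 genes are the phospholipases A2 Pla2g2f, Pla2g4a and Pla2g6, the cyclooxygenases Ptgs1 and Ptgs2, the PGE2 synthases Ptges, Ptges2 and Ptges3, and the receptors Ptger3 and Ptger4. They were selected by gene name from the 28727 named genes of a count table, with results of these same data already known, so their differences are described here and not tested anew. Of the 10 genes, 7 had enough counts to enter the fit, 1 (Pla2g4a) was at 0 in every library, and Ptges and Ptger4 were close to 0.

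The cells, INS-1 832/13, received an adenovirus for GFP (the control) or for ChREBPβ, a truncated form of the carbohydrate-sensing transcription factor that Mlxipl encodes, and were kept in 2 mM or 11 mM glucose for 48 h. This gave 4 groups of 3 libraries each, GFP at 2 mM, GFP at 11 mM, ChREBPβ at 2 mM and ChREBPβ at 11 mM, 12 libraries in all. All groups shared the parental line and carried a virus, and the ChREBPβ was a tagged mouse protein driven from the adenovirus, not the cells' own gene. GEO's labels do not say whether the libraries of a group came from separate cultures, while the study describes its RNAseq values as averages over independent experiments. The errors below measure the spread between these libraries.

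Phospholipases A2 cut fatty acids, arachidonate among them, from membrane phospholipids. Cyclooxygenases oxidise free arachidonate to prostaglandin H2, and PGE2 synthases convert that intermediate to PGE2. Released PGE2 acts on G protein-coupled receptors, and in islets the receptor encoded by Ptger3, which couples to inhibitory G proteins, is known for lowering cyclic AMP and insulin secretion.

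Promoter sequences are shown for the 2 members whose counts differed most between viruses, Pla2g2f and Ptger3, because a transcription factor was overexpressed. They are the 250 bases before the annotated start in RefSeq's GRCr8 assembly, 5′ to 3′ on the gene's strand. They hold no copy of CACGTG, the core hexamer of the element that ChREBP is known to bind, so none of their letters are in capitals. Pla2g2f lies at chr5:156276465-156276714 on the minus strand and Ptger3 at chr2:249264832-249265081 on the plus strand.
Pla2g2f: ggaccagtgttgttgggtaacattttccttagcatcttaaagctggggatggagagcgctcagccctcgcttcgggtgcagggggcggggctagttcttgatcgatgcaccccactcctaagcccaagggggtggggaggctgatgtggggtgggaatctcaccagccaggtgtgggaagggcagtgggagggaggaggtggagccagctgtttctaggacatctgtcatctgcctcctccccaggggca
Ptger3: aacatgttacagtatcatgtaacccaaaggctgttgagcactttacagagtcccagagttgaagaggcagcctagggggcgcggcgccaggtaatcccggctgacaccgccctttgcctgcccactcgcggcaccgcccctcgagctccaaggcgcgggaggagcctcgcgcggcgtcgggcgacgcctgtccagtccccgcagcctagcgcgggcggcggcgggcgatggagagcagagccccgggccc

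Of the 10 members, 9 had a promoter window in the RefSeq table, while Ptges2 had none. The hexamer, which reads the same on both strands, was searched in windows from 250 bases before to 50 bases after the start, and occurred in those of 2 members, Pla2g6 and Ptgs2. It occurred in 6.42% of all 33469 windows of that length. Stretches around it are shown with the hexamer in capitals. That of Pla2g6 lies at chr7:112771610-112771648 on the minus strand, where the hexamer begins 12 bases before one annotated start and 125 bases before the other. That of Ptgs2 lies at chr13:64713981-64714040 on the plus strand, where it begins 55 bases before the start.
Pla2g6: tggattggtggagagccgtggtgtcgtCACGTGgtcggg
Ptgs2: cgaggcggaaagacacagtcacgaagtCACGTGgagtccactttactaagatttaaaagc

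No member window held 2 copies of the hexamer 5 bases apart, an arrangement found in 1 of the 33469 windows. Neither gene with a hexamer was called higher with ChREBPβ by the rule given below, and of the 4 members called higher, Pla2g2f, Ptges3 and Ptger3 had windows without it. Only exact copies of the hexamer were sought, so elements that differ from it by some bases would be missed. These matches describe letters in short windows and say nothing of binding or of why a gene was called.

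Levels are given as CPM, the count of a gene scaled by TMM to a library of 1000000 counts on tested genes, and are compared between groups within a gene only, since CPM is not corrected for gene length. Library totals ran from 25754488 to 60531215 counts and differed between groups. The median was 30197425 with GFP at 2 mM, 44398404 with GFP at 11 mM, 57313995 with ChREBPβ at 2 mM and 59249045 with ChREBPβ at 11 mM. Library a of ChREBPβ at 2 mM held 28595982, against 57313995 and 57726412 in the other two of its group. A gene with up to 3 counts in a library was taken as at the floor, which is 0.0512 to 0.110 CPM, and RNA was amplified before sequencing, so such limits cover counting error only. A gene was called higher or lower at a Benjamini-Hochberg adjusted p under 0.05 in edgeR's quasi-likelihood test and a change of at least 1.2-fold. Of 12 β-cell markers 11 were measured in the fit, with G6pc2 at 0 to 2 counts. Their summed level was 25500 to 28600 CPM with GFP at 2 mM, 20500 to 22400 with GFP at 11 mM, 13500 to 13900 with ChREBPβ at 2 mM and 12600 to 13200 with ChREBPβ at 11 mM. The rat Mlxipl entry averaged 256 ± 18.8, 207 ± 5.32, 205 ± 6.63 and 188 ± 11.0 CPM (SD, n = 3) in the same order. An entry named ChREBPb, picked after its values were seen, averaged 77.8 ± 4.53, 68.0 ± 4.63, 90.2 ± 0.504 and 88.0 ± 9.0 CPM. Neither entry was raised strongly in the libraries labelled ChREBPβ. By the call rule, Mlxipl was lower with ChREBPβ at 2 mM (log2 fold change -0.33) and ChREBPb was higher at 11 mM (0.37). The virus carries mouse sequence, and how its reads were counted on rat entries was not tested, so neither entry checks those labels.

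Pla2g2f, a secreted phospholipase A2, was the member whose level differed most. With GFP at 2 mM, libraries a, b and c held 0.515, 0.262 and 0.288 CPM. With GFP at 11 mM they held 1.84, 1.34 and 2.43 CPM. With ChREBPβ they held 23.7, 28.0 and 26.6 CPM at 2 mM and 22.9, 26.1 and 27.3 CPM at 11 mM. Every ChREBPβ library lay above every GFP library, every GFP library at 11 mM lay above every one at 2 mM, and the ChREBPβ groups overlapped. The level with ChREBPβ was 75.4-fold that with GFP at 2 mM, a log2 fold change of 6.24 ± 0.19 (SE), and 13.3-fold at 11 mM, a log2 fold change of 3.74 ± 0.13. With GFP, the level at 11 mM glucose was 5.47-fold that at 2 mM (log2 fold change 2.45 ± 0.30), while with ChREBPβ the log2 fold change was -0.05 ± 0.10. The low group rested on 9 to 14 counts a library, 32 in all, against 3722 with ChREBPβ at 2 mM. In bulk RNA, fewer cells expressing a gene and less of its RNA per cell cannot be told apart.

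The order of levels of Pla2g2f was thus GFP at 2 mM, GFP at 11 mM, then both ChREBPβ groups, which did not differ beyond their spread. Its ChREBPβ difference was smaller at 11 mM than at 2 mM by 2.50 ± 0.31 on the log2 scale. This is the same quantity as the glucose difference with ChREBPβ less that with GFP.

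**Figure D1:**
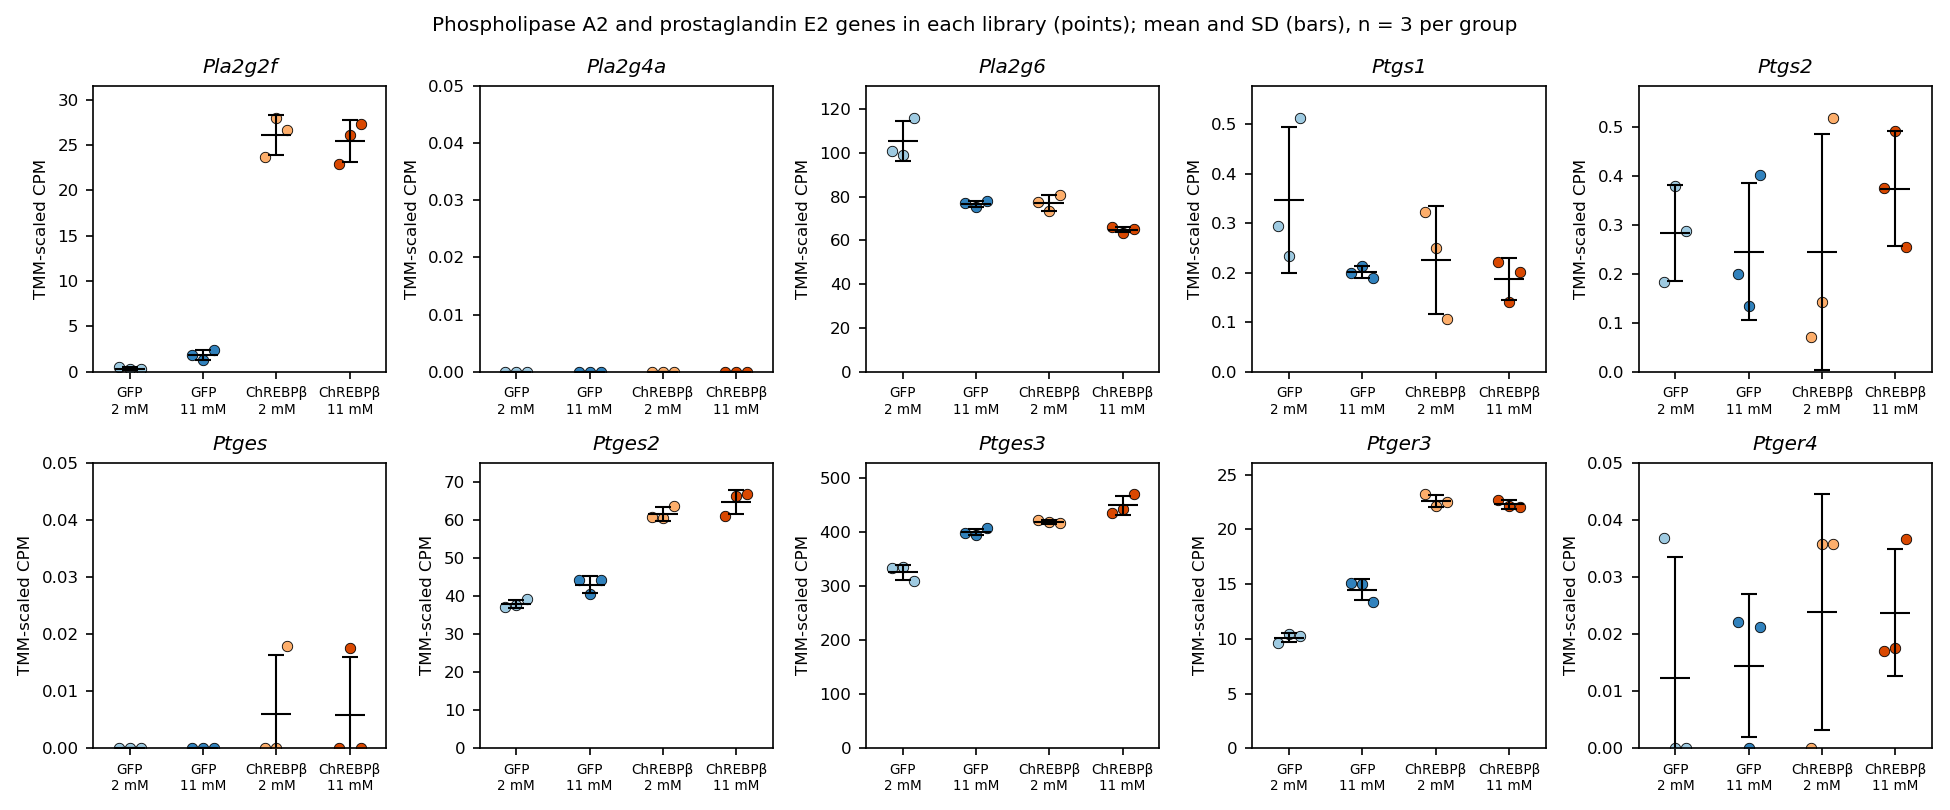
TMM-scaled CPM (vertical axes, linear, a scale of its own for each gene) of the 10 members in each library (points), with the mean and SD of each group of 3 (horizontal marks and bars). Pla2g2f, Ptges2, Ptges3 and Ptger3 sit higher in every ChREBPβ library than in every GFP library, Ptges3 by a small margin. Pla2g6 is highest with GFP at 2 mM, and Pla2g4a, Ptges and Ptger4 stay at or near 0.

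Pla2g2f sits in a row of secreted phospholipase A2 genes. In the RefSeq order the genes beside it are Pla2g2c on one side and Pla2g2d, Pla2g5, Pla2g2a and Pla2g2e on the other. Pla2g2c averaged 1.38, 0.866, 1.55 and 1.32 CPM in GFP at 2 mM, GFP at 11 mM, ChREBPβ at 2 mM and ChREBPβ at 11 mM, and it was called in no comparison. Pla2g2d, Pla2g2a and Pla2g2e were at 0 in all 12 libraries, and Pla2g5 held 28 counts over all 12, at most 6 in one. Of the other genes flanking this row, Otud3 averaged 6.61, 6.55, 6.72 and 5.77 CPM in the same order of groups and, like Ubxn10, was called in no comparison. Vwa5b1 was called higher with ChREBPβ at 11 mM, with a log2 fold change of 0.36 (edgeR adjusted p = 0.0263). Rnf186 was called lower with glucose in GFP cells, with a log2 fold change of -0.58 (edgeR adjusted p = 0.00604). Among these phospholipase genes Pla2g2f alone exceeded a group mean of 1.55 CPM, and its own span overlapped no other gene in the RefSeq table.

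**Figure D2:**
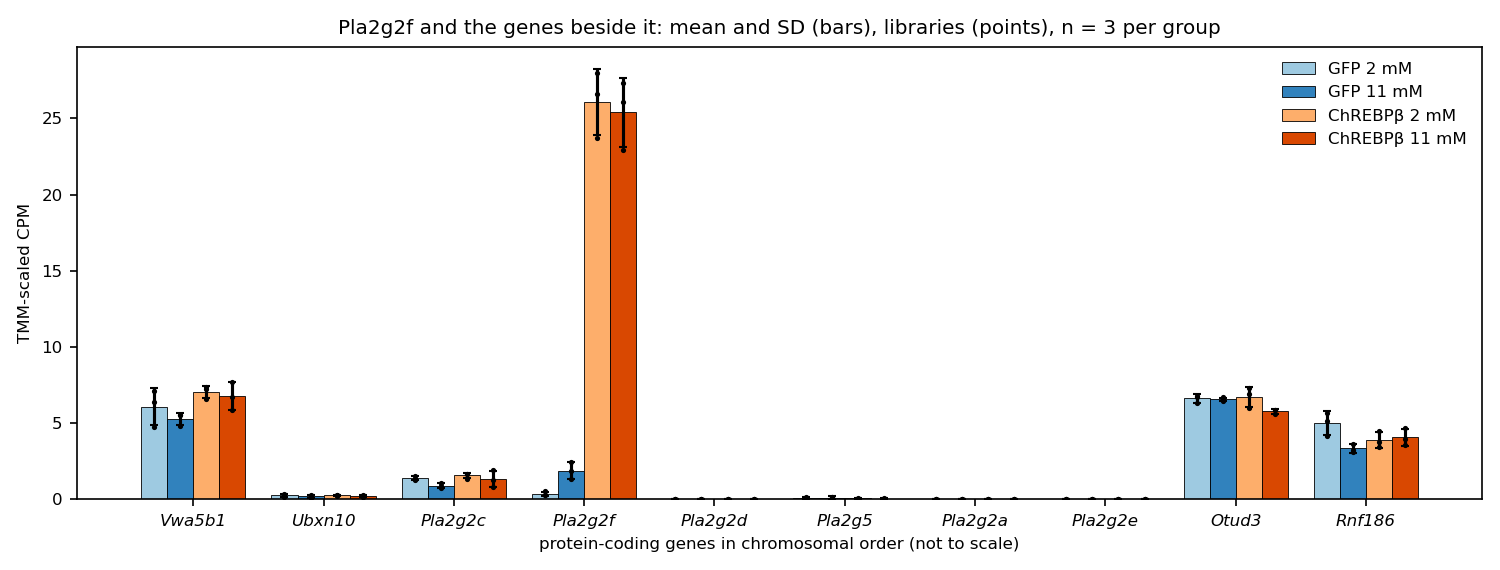
Mean TMM-scaled CPM (vertical axis, from 0; bars, with SD and the 3 libraries as points) of Pla2g2f and the genes beside it in chromosomal order, in the 4 groups. Pla2g2f reaches 26.1 and 25.4 CPM with ChREBPβ, while Pla2g2c stays between 0.866 and 1.55 CPM and Pla2g2d, Pla2g2a and Pla2g2e are at 0.

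Pla2g6, the calcium-independent phospholipase A2 that acts in membrane remodelling, went the other way. Libraries a, b and c held 101, 99.0 and 116 CPM with GFP at 2 mM and 77.0, 75.4 and 78.1 CPM with GFP at 11 mM. With ChREBPβ they held 77.7, 73.4 and 80.7 CPM at 2 mM and 66.0, 63.5 and 65.2 CPM at 11 mM. GFP at 2 mM was the highest group, ChREBPβ at 11 mM the lowest, and the 2 groups between them overlapped. The log2 fold change of ChREBPβ against GFP was -0.45 ± 0.06 (SE) at 2 mM and -0.24 ± 0.06 at 11 mM, the second being under 1.2-fold. That of 11 against 2 mM glucose was -0.45 ± 0.06 with GFP and -0.25 ± 0.06 with ChREBPβ, the second again under 1.2-fold. That last value passed 1.2-fold without library a of ChREBPβ at 11 mM (-0.26) or without library b of ChREBPβ at 2 mM (-0.29). Scaled by library totals alone, Pla2g6 was also called lower at 11 mM, at -0.33.

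Pla2g4a, the cytosolic calcium-dependent phospholipase A2 with a preference for arachidonate, had no count in any of the 12 libraries. A count of 0 allows up to 3 counts a library, 0.0512 CPM in the deepest and 0.110 CPM in the shallowest.

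The cyclooxygenases were sparse in all groups. Ptgs1, the constitutive form, held 6 to 16 counts a library. Its CPM values in libraries a, b and c were 0.294, 0.233 and 0.513 with GFP at 2 mM, 0.199, 0.214 and 0.190 with GFP at 11 mM, 0.322, 0.250 and 0.107 with ChREBPβ at 2 mM, and 0.222, 0.140 and 0.201 with ChREBPβ at 11 mM. The ChREBPβ libraries overlapped the GFP libraries at both glucose levels. With GFP, all 3 libraries at 11 mM lay below those at 2 mM, with a log2 fold change of -0.78 ± 0.47 (SE). With ChREBPβ against GFP it was -0.70 ± 0.47 at 2 mM and -0.09 ± 0.47 at 11 mM.

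Ptgs2, the form that inflammatory signals induce, held 2 to 29 counts a library. Its CPM values were 0.184, 0.379 and 0.288 with GFP at 2 mM, 0.199, 0.134 and 0.402 with GFP at 11 mM, 0.0716, 0.143 and 0.519 with ChREBPβ at 2 mM, and 0.375, 0.491 and 0.256 with ChREBPβ at 11 mM. All groups overlapped. The log2 fold change of ChREBPβ against GFP was -0.10 ± 0.59 (SE) at 2 mM and 0.57 ± 0.52 at 11 mM, and that of glucose was -0.20 ± 0.60 with GFP and 0.47 ± 0.51 with ChREBPβ. Single libraries decided these values. Without library c of ChREBPβ at 2 mM, the 2 mM value was -1.28 and the glucose value with ChREBPβ 1.66, and without library c of GFP at 11 mM the 11 mM value was 1.14. A difference of the size seen for Ptges2 was not detectable for either cyclooxygenase at this depth.

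Of the 3 PGE2 synthases, Ptges2 and Ptges3 were well covered and Ptges was not. Ptges, the microsomal synthase that is induced together with Ptgs2, held 1 count in library c of ChREBPβ at 2 mM, 1 in library b of ChREBPβ at 11 mM and 0 in the others, all under the floor.

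Ptges2, a membrane-associated synthase, held 37.0, 37.6 and 39.1 CPM in libraries a, b and c with GFP at 2 mM and 44.2, 40.4 and 44.2 CPM with GFP at 11 mM. With ChREBPβ it held 60.6, 60.4 and 63.5 CPM at 2 mM and 61, 66.3 and 66.7 CPM at 11 mM. Every ChREBPβ library lay above every GFP library, and the ChREBPβ groups overlapped. The level with ChREBPβ was 1.62-fold that with GFP at 2 mM (log2 fold change 0.70 ± 0.05, SE) and 1.51-fold at 11 mM (0.59 ± 0.05). Glucose gave a log2 fold change of 0.18 ± 0.05 with GFP, under 1.2-fold although the libraries did not overlap, and of 0.07 ± 0.05 with ChREBPβ. A long noncoding RNA gene overlaps the span of Ptges2 in the RefSeq table, and how its reads were counted was not tested.

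Ptges3, the cytosolic synthase also known as the Hsp90 co-chaperone p23, held 333, 335 and 310 CPM with GFP at 2 mM and 399, 395 and 407 CPM with GFP at 11 mM. With ChREBPβ it held 423, 419 and 416 CPM at 2 mM and 435, 443 and 470 CPM at 11 mM. No pair of neighbouring groups overlapped, so the order was GFP at 2 mM, GFP at 11 mM, ChREBPβ at 2 mM and ChREBPβ at 11 mM. The steps were small, with log2 fold changes for ChREBPβ of 0.36 ± 0.04 (SE) at 2 mM and 0.17 ± 0.04 at 11 mM, and for glucose of 0.30 ± 0.04 with GFP and 0.10 ± 0.04 with ChREBPβ. The 11 mM value and the glucose value with ChREBPβ were under 1.2-fold, and without library c of GFP at 2 mM the glucose value with GFP fell just under it too, at 0.26. The table also lists the related Ptges3l and Ptges3l1, and how reads shared between such copies were counted is not given in the sources used here, so the level of Ptges3 is uncertain. A long noncoding RNA gene also overlaps the span of Ptges3 in the RefSeq table, and the counting of its reads was not tested.

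Ptger3, the receptor known as EP3, differed between the GFP groups as well as between the viruses. It held 9.63, 10.4 and 10.3 CPM in libraries a, b and c with GFP at 2 mM and 15.1, 15 and 13.4 CPM with GFP at 11 mM. With ChREBPβ it held 23.2, 22.1 and 22.5 CPM at 2 mM and 22.7, 22.1 and 22.0 CPM at 11 mM. The GFP groups did not overlap each other or the ChREBPβ groups, and the ChREBPβ groups overlapped. The level with ChREBPβ was 2.23-fold that with GFP at 2 mM (log2 fold change 1.16 ± 0.07, SE) and 1.54-fold at 11 mM (0.62 ± 0.06). Glucose gave 1.43-fold with GFP (0.52 ± 0.07) and a log2 fold change of -0.02 ± 0.06 with ChREBPβ. The ChREBPβ difference was smaller at 11 mM than at 2 mM by 0.53 ± 0.09 on the log2 scale. The same quantity, 11 less 2 mM, was -0.11 ± 0.07 for Ptges2, -0.20 ± 0.06 for Ptges3 and 0.20 ± 0.08 for Pla2g6, each under 1.2-fold. A pseudogene lies within the span of Ptger3 in the RefSeq table, and the counting of its reads was not tested.

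Ptger4, the receptor known as EP4, which couples to the stimulatory G protein, held 0 to 2 counts a library, under the floor in all 12, so no level or difference is given for it.

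**Figure D3:**
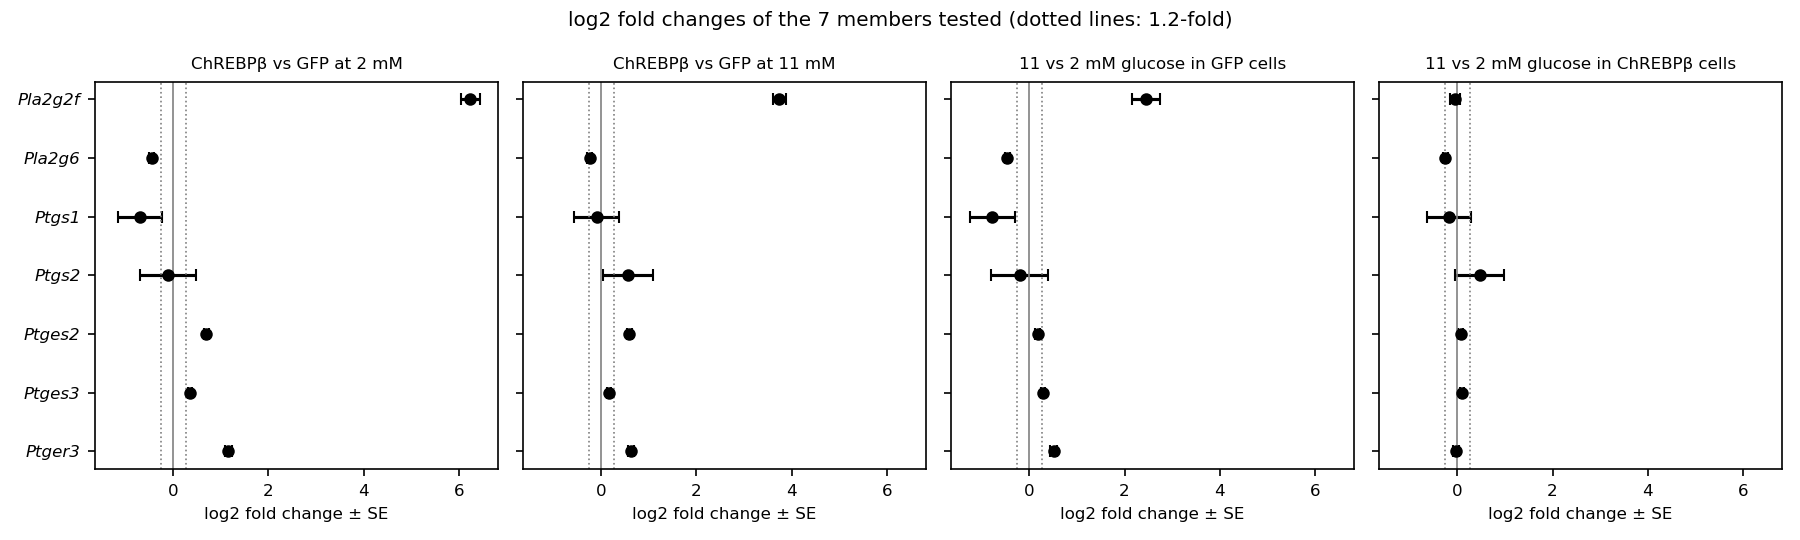
log2 fold changes (horizontal axis, the same in each panel) with their SE for the 7 members in the fit, one panel for each comparison between groups, with dotted lines at 1.2-fold. With ChREBPβ against GFP, Pla2g2f stands at 6.24 and 3.74 and Ptger3 at 1.16 and 0.62. With glucose in ChREBPβ cells Ptgs2 alone lies beyond a dotted line, at 0.47 with an SE of 0.51.

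Counted by the call rule, 4 of the 7 members in the fit were higher and 1 was lower with ChREBPβ at 2 mM, where 21.0% of all 14669 genes tested were called higher and 23.2% lower. At 11 mM 3 were higher and 0 lower, where 14.3% of all genes were called higher and 19.1% lower. With glucose in GFP cells 3 were higher and 1 lower, where 10.2% of all genes were called higher and 10.0% lower. With glucose in ChREBPβ cells edgeR called 0 members, where 0.988% of all genes were called higher and 2.88% lower. At an unadjusted p under 0.05 edgeR had 1 member higher (Ptges3) and 1 lower (Pla2g6) there, and DESeq2 likewise had 1 and 1 at that level and called 0. In the difference of the ChREBPβ effects, 11 less 2 mM, 0 were higher and 2 were lower (Pla2g2f and Ptger3), where 1.56% of all genes were called higher and 4.74% lower. The members were chosen with these results known, so nothing is read from these counts. The median log2 fold change of the 7 was 0.36 at 2 mM, 0.57 at 11 mM, 0.18 for glucose with GFP and -0.02 for glucose with ChREBPβ, beside medians over all genes of -0.02, -0.02, 0.00 and 0.00. The median at 11 mM is the value of Ptgs2, which was sparse and not called (SE 0.52). Nothing is read from these medians either, for the same reason of choice. These comparisons share libraries, GFP at 2 mM entering both the first and the third.

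Scaling by library totals alone, the median of all genes moved to -0.12 at 2 mM and -0.10 at 11 mM, and the share of calls that were higher went from 47.5% to 33.2% and from 42.9% to 29.3%. The direction of each of the 7 members stayed the same under TMM, RLE and library totals: 4 higher and 3 lower at 2 mM, 5 and 2 at 11 mM. These tallies include the sparse Ptgs1 and Ptgs2, whose directions are not settled. With single libraries left out, Ptgs2 at 2 mM ran from -1.28 to 0.24 and Ptgs1 at 11 mM from -0.23 to 0.08.

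The summed β-cell markers were lower where Pla2g2f, Ptges2 and Ptger3 were higher, by the values above. Markers of cells that make PGE2 elsewhere were low. Of 5 macrophage markers in the table, Ptprc was at 0 in every library, and the summed level was 2.27 to 2.87 CPM with GFP at 2 mM, 3.78 to 5.29 with GFP at 11 mM, 5.34 to 5.87 with ChREBPβ at 2 mM and 6.28 to 7.68 with ChREBPβ at 11 mM, most of it C1qa at 1.78 to 6.53 CPM. Of 5 fibroblast markers, Dcn and Lum were at 0 in every library, and the sum was 6.91 to 8.82, 4.08 to 5.54, 3.39 to 4.58 and 4.07 to 4.38 CPM in the same order of groups, nearly all of it Pdgfra at 3.32 to 8.78 CPM. Of 4 endothelial markers none was at 0 throughout, and the sum was 2.32 to 3.09, 2.87 to 3.09, 1.92 to 2.03 and 1.52 to 2.54 CPM. Their part in the members' differences was not tested.

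The genes whose levels ran most like the members' were sought by Pearson correlation of log2 CPM over the 12 libraries, across the 12476 other genes that averaged 1 CPM or more. These values describe likeness, since the libraries fall into 4 groups and share their depth and scaling. Nearest to Pla2g2f were RT1-S2 at 0.9974, Rasgrp2 at 0.9971, G0s2 at 0.9963 and Tfam at 0.9958. RT1-S2 belongs to the class I histocompatibility family, whose members share reads, so its counts are uncertain. G0s2, which encodes an inhibitor of triglyceride lipolysis, averaged 7.58, 22.8, 159 and 148 CPM in the 4 groups in the order above. Tfam averaged 111, 120, 141 and 141 CPM, the same shape over a far smaller range. Among the nearest to Ptger3 were Tnfrsf21 at 0.9926, Slc2a4 at 0.9915 and Bhlhe40 at 0.9914. Slc2a4, the insulin-responsive glucose transporter, averaged 9.35, 25.2, 73.3 and 79.0 CPM. For Ptgs2 the nearest was Smug1 at 0.808, then Rpain, Adprm and Lsg1, and with so few Ptgs2 counts this is no finding. Among the members, Pla2g2f ran most like Ptges2 (0.9785) and Ptger3 (0.9771) and opposite to Pla2g6 (-0.8219).

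A further 78 genes of the pathway were listed beside the members, and 53 of them were in the fit. With ChREBPβ at 2 mM, 12 of the 53 rose and 18 fell, beside 21.0% and 23.2% of all genes, with a median log2 fold change of -0.06 beside -0.02. At 11 mM 8 rose and 14 fell, beside 14.3% and 19.1% of all genes, with a median of -0.14 beside -0.02. With glucose in GFP cells 7 rose and 1 fell, beside 10.2% and 10.0%, and in ChREBPβ cells 1 rose and 2 fell, beside 0.988% and 2.88%. The counts by role below are to be read against the same shares, and nothing is called particular to the list. The adjusted p-values that follow are from edgeR over all 14669 genes.

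The list of other phospholipases A2 also holds the activator gene Plaa and the receptor gene Pla2r1, and 11 of its 20 genes were in the fit. Of these, 2 rose (Pla2g4b and Plaa) and 2 fell at 2 mM, and 1 rose and 2 fell at 11 mM. Pla2g4b, a cytosolic form, rose from 4.49 ± 0.373 to 7.33 ± 0.172 CPM at 11 mM (SD, n = 3), a log2 fold change of 0.70 with an edgeR adjusted p of 6.91e-05. Pla2g4e fell from 1.00 ± 0.298 to 0.310 ± 0.0748 CPM at 2 mM, a log2 fold change of -1.65 with an edgeR adjusted p of 0.000317, and by 1.25 on the log2 scale at 11 mM. Pla2g16 fell too, with log2 fold changes of -0.75 at 2 mM and -0.78 at 11 mM, and edgeR adjusted p of 0.0187 and 0.0151. Plaa, an activator of phospholipase A2, rose with glucose in GFP cells, with a log2 fold change of 0.36 and an edgeR adjusted p of 5.02e-06. With ChREBPβ at 2 mM it rose too, at 0.43 (edgeR adjusted p = 1.29e-07). Among these other phospholipases A2, the largest log2 fold change of those called higher in the 4 comparisons between groups was that 0.70 of Pla2g4b.

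Genes that supply arachidonate or release it by other lipases went both ways, 3 rising and 7 falling of 14 in the fit at 2 mM, 3 and 6 at 11 mM. Mgll, the monoacylglycerol lipase that frees arachidonate from its glycerol ester, averaged 1.46 ± 0.313, 3.5 ± 0.339, 10.1 ± 0.604 and 11.5 ± 0.544 CPM (SD, n = 3) in GFP at 2 mM, GFP at 11 mM, ChREBPβ at 2 mM and ChREBPβ at 11 mM. It rose with ChREBPβ by log2 fold changes of 2.77 and 1.72 at 2 and 11 mM (edgeR adjusted p = 6.95e-13 and 5.77e-11), and with glucose in GFP cells by 1.24 (2.99e-06). Dagla, which makes that ester from diacylglycerol, rose with ChREBPβ by 1.32 and 1.10 at 2 and 11 mM (edgeR adjusted p = 3.08e-15 and 6.33e-14). Acsl6, an acyl-CoA synthetase, fell, with log2 fold changes of -0.80 and -0.79 (edgeR adjusted p = 1.75e-10 and 2.03e-10). Elovl5, a fatty acid elongase, rose with glucose in GFP cells by 0.35 (edgeR adjusted p = 2.72e-05). Abhd6, another lipase for the same ester, fell with glucose in both, with log2 fold changes of -0.55 in GFP cells and -0.36 in ChREBPβ cells (edgeR adjusted p = 4.75e-07 and 0.00047). It was also called lower with ChREBPβ, at -0.48 at 2 mM and -0.29 at 11 mM (edgeR adjusted p = 5.66e-07 and 0.000302).

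Of the genes for PGE2 transport and breakdown, 1 rose and 3 fell of 5 in the fit at 2 mM, and 0 rose and 1 fell at 11 mM. Hpgd, the dehydrogenase that starts PGE2 breakdown, averaged 9.91 ± 0.482, 17.4 ± 0.686, 18.2 ± 0.440 and 17.9 ± 1.47 CPM in the order of groups above. It rose with ChREBPβ at 2 mM (log2 fold change 0.87, edgeR adjusted p = 5.82e-09) and with glucose in GFP cells (0.81, 1.21e-07), while ChREBPβ at 11 mM gave 0.04 (adjusted p = 0.659). Its level with GFP at 2 mM thus stood apart from the other 3 groups.

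The remaining PGE2 receptors were Ptger1 and Ptger2. Ptger1, known as EP1, averaged 75.0 ± 3.45, 66.1 ± 1.94, 63.9 ± 2.77 and 50.7 ± 1.27 CPM in the order above. It fell with ChREBPβ at 11 mM (log2 fold change -0.38, edgeR adjusted p = 1.89e-06) and with glucose in ChREBPβ cells (-0.33, 0.000203), and at 2 mM its log2 fold change of -0.23 was under 1.2-fold. Ptger2, known as EP2, was at 0 in all 12 libraries, which allows up to 3 counts in each. Of the receptors that raise cyclic AMP, Ptger2 and Ptger4, neither was thus above the floor, while Ptger1 and Ptger3 were. Of 8 G protein genes that serve these receptors, 2 rose and 4 fell at 2 mM, and 2 rose and 2 fell at 11 mM.

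Among synthases of other prostanoids 0 of 4 in the fit were called at 2 mM by edgeR, and at 11 mM 1 was, Fam213b, which fell (log2 fold change -0.72, edgeR adjusted p = 0.0306). In the lipoxygenase branch Alox15 fell at 2 mM (-1.85, edgeR adjusted p = 0.000489), from 0.849 ± 0.281 to 0.238 ± 0.0546 CPM. It was sparse, with 18 to 31 counts a library with GFP and 8 to 14 with ChREBPβ at 2 mM. At 11 mM it was not called (-0.70, edgeR adjusted p = 0.115). Of the receptors of other prostanoids 1 of 5 was in the fit, the thromboxane receptor gene Tbxa2r, mentioned outside the naming rule, which rose at 2 mM from 2.50 ± 0.155 to 3.46 ± 0.645 CPM (log2 fold change 0.49, edgeR adjusted p = 0.00999). Among regulators of Pla2g4a and Ptgs2, 3 rose and 1 fell of 6 in the fit at 2 mM. Zfp36, whose protein destabilises messengers including that of Ptgs2, rose with ChREBPβ by 1.00 and 1.12 at 2 and 11 mM (edgeR adjusted p = 1.60e-09 and 1.32e-10), and with glucose in ChREBPβ cells by 0.28 (0.0185). Il1b, a cytokine known to induce Ptgs2, was at 0 in all 12 libraries; it was picked for mention after its values were seen.

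**Figure D4:**
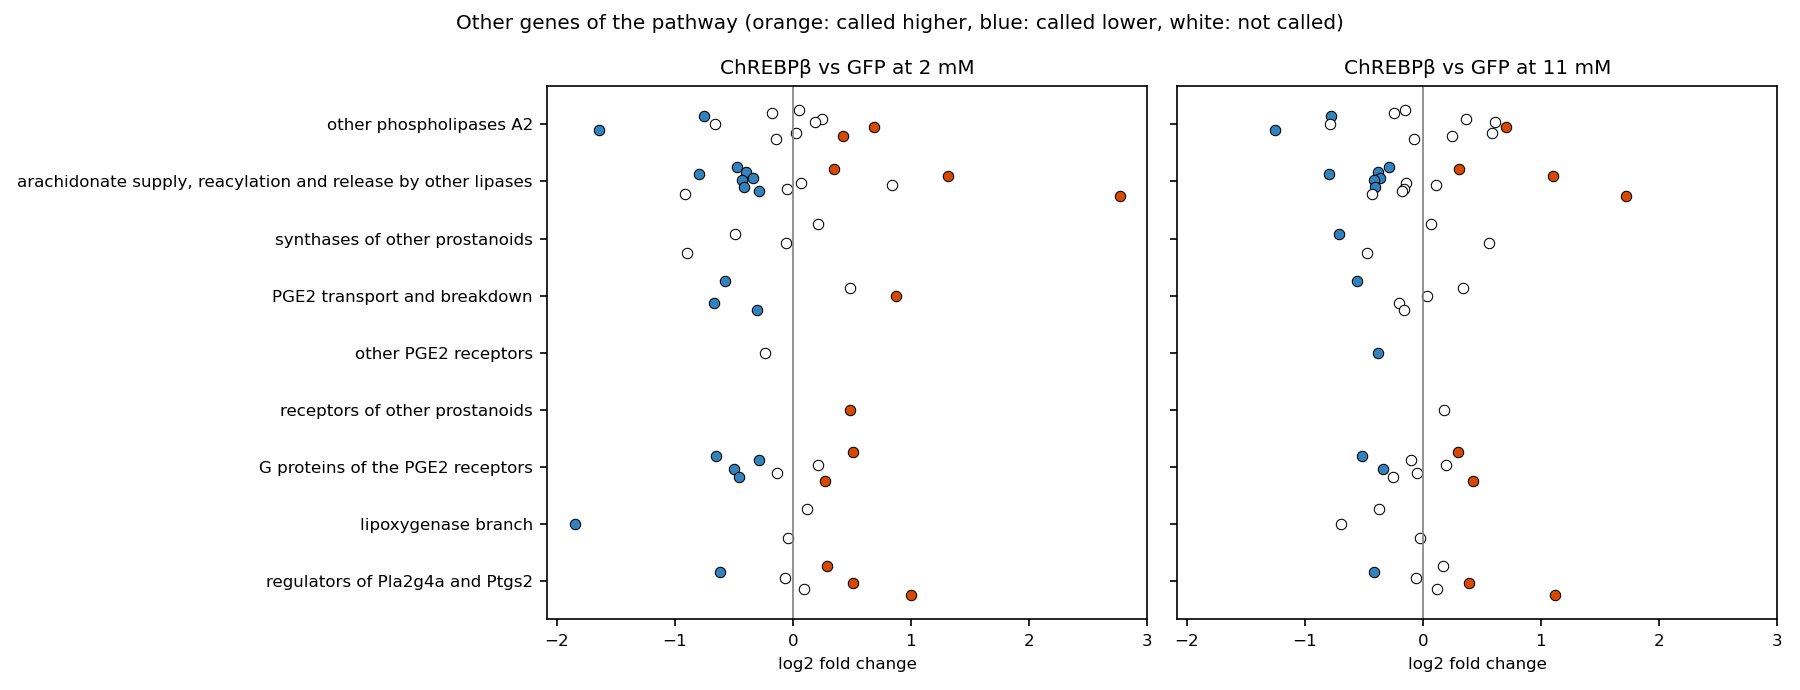
log2 fold change of ChREBPβ against GFP (horizontal axis) at 2 mM and 11 mM for the 53 other pathway genes in the fit, one row for each role, with genes called higher in orange, called lower in blue and not called in white. Calls go both ways in 4 of the 9 roles at 11 mM, and Mgll lies farthest to the right at 2.77 and 1.72.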

How the data were processed

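RNA from the 12 libraries was amplified with a kit that does not mark strand (NuGEN Ovation V2) and sequenced, and the authors deposited raw read counts per gene, without normalization, in a table of 28728 entries. The genome build named in the submitters' processing notes is Rnor_6.0; aligner, counter and strand setting are not given in the sources used here. The authors also deposited 4 columns of group means of the raw counts, which were not used. The general adenovirus methods give a longer culture time than the 48 h stated for these libraries. An entry without a name, with 0.00430% to 0.00601% of a library's counts, was left out.

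Groups follow the sample titles. Genes were filtered with filterByExpr (edgeR 4.0.16, R 4.3.3), which kept 14669, scaled by TMM, and all 12 libraries were fitted together by quasi-likelihood with group as the only factor. The 4 pairwise contrasts, and another for how the ChREBPβ effect changed with glucose, were each Benjamini-Hochberg adjusted over all tested genes. SE is the log2 fold change over the square root of F. Log2 CPM used a prior count of 2. The fits were tested on simulated data. Libraries of a group differed by more than counting noise, and the labels name no batch.

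The members, the 78 pathway genes and the marker lists were chosen with earlier results of these data known. Named pathway genes are those that moved most among the genes called in each comparison, 4 up and 4 down, plus Ptger1 and Ptger2. The value of 1 gene that the naming rules would give is not reported here. Pathway genes were matched by symbol or older symbol, all 78 of 78. Promoters and gene order are from RefSeq GRCr8, another build than that of the counts.

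Alternatives were DESeq2 1.42.0, RLE factors, library totals, no filter, a floor of 10 counts per library, blocking by replicate letter, no minimum fold, a minimum of 2-fold, fits of the compared groups alone, and each library left out in turn.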

Additional observations from a re-analysis of the deposited data

Results flagged for a closer look

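Differences between the ChREBPβ effects at 11 and 2 mM glucose were called for 2 of the 7 members and 2 of the 53 other pathway genes. All 4 were called lower, where 1.56% of all 14669 genes tested were called higher and 4.74% lower. Nothing is called particular to these 4. The values below are those of edgeR's interaction contrast, 11 less 2 mM, on the log2 scale. For Pla2g2f it was -2.50 ± 0.31 (SE), with log2 fold changes of 6.24 at 2 mM and 3.74 at 11 mM. For Ptger3 it was -0.53 ± 0.09, with 1.16 and 0.62. Both members were chosen with these values known. Among the other pathway genes it was -1.05 ± 0.18 for Mgll (adjusted p = 0.000868) and -0.84 ± 0.10 for Hpgd (adjusted p = 2.09e-05). None of the 4 was called with glucose in ChREBPβ cells, and each had its lowest mean with GFP at 2 mM. No group of 3 libraries was tested for outlying samples.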

How the results depend on the processing

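No called result changed direction under the alternatives. Members called with glucose in ChREBPβ cells went from 0 to 1 (Pla2g6) with library totals and with no minimum fold, and were 0 to 1 when libraries were left out in turn. With no minimum fold there were 5 members at 11 mM and 18 other pathway genes with glucose in GFP cells. The count over all genes at 11 mM without a minimum is not given here, so nothing is read from those 5. With a minimum of 2-fold, members called were 2 at 2 mM, 1 at 11 mM, 1 with glucose in GFP cells and 1 in the difference of effects, and other pathway genes were 5, 4, 1 and 1, and 0 with glucose in ChREBPβ cells. Over all genes the 2-fold minimum left 1456, 992, 294, 28 and 108 calls in the 5 contrasts, and no minimum gave 5030 and 1100 for glucose in GFP and ChREBPβ cells. With at least 10 counts in every library 4 members were tested and Pla2g2f was not, leaving 1 called in the difference of effects.

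The replicate letters showed little pairing of the libraries. Over 18 same-letter pairs the correlation of deviations from group means ran only from -0.114 to 0.0644. In 11 of 18 comparisons of a library with another group it correlated best with its own letter. That is more than an even share over the letters, so a weak pairing remains possible. With the letter as a replicate block, 5 members were called at 2 mM, 3 at 11 mM, 4 and 0 for glucose and 2 in the difference of effects, the counts found without it. Depth limits Ptgs1 and Ptgs2, with SE of 0.47 to 0.60 in the comparisons between groups, and leaves Pla2g4a, Ptges and Ptger4 without a measured difference.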
